A study of Homo sapiens with 12 samples.

Results

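RNA of MDA-MB-231 cells labelled MEK5DD was compared with RNA of the parental controls of the same line. The comparison held 4 of the 12 libraries of the series, 2 of each kind, and took them by their labels. It covered protein-coding genes, of which 13737 of 17665 were expressed highly enough to be tested. MDA-MB-231 is an established human triple-negative breast cancer line, that is, one without the estrogen and progesterone receptors or HER2 amplification. The parental controls had been taken at passages 29 and 30, and the MEK5DD cells at passages 10 and 11. The other 8 libraries were MDA-MB-231 cells labelled ERK5-ko at passages 7 and 8, and, in the Hs-578T line, parental controls at passages 83 and 84, ERK5-ko cells at passages 8 and 9 and MEK5DD cells at passages 8 and 9. MDA-MB-231 cells with an empty vector are not among the libraries. How the MEK5DD cells were made (the vector, its promoter, and whether the cells are a clone or a pool) is not given in the sources used here.

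MEK5, encoded by MAP2K5, is the kinase that phosphorylates and activates ERK5, encoded by MAPK7. MEK5DD is a form of MEK5 in which the residues that are phosphorylated on activation are replaced by aspartate, which keeps the kinase active. Active ERK5 enters the nucleus, phosphorylates MEF2 transcription factors and is known to raise the transcription of KLF2 and KLF4. In breast cancer cells the pathway is known for its links to proliferation, migration and the epithelial to mesenchymal transition (EMT), in which cells lose epithelial junctions and keratins and gain vimentin.

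Levels are RPKM values, reads per kilobase of gene model scaled to the size of the library, and are comparable between genes of different length. The 4 libraries held 24052770 to 27791195 reads, of which 92.85 to 93.34% lay on listed genes and 0.566 to 0.695% on the 13 mitochondrial mRNAs. The median absolute log2 difference between replicates was 0.0708 in parental controls and 0.0717 in MEK5DD cells, and between the 2 groups 0.272 to 0.277. The replicates differed by more than counting noise, with a chi-square per degree of freedom of 4.03 in parental controls and 3.10 in MEK5DD cells, so they were counted as separate libraries. The 6 markers of a mesenchymal triple-negative line summed to 4519 and 4685 RPKM in parental controls and to 6901 and 6918 in MEK5DD cells. Markers of other cell types were in part expressed. Of the luminal markers, ESR1, PGR and FOXA1 did not exceed 0.0638 RPKM, while ERBB2 (36.9 to 49.3), XBP1 (56.3 to 71.9) and GATA3 (5.62 to 6.84) were expressed. AGR2 went from 3.58 and 3.33 to 0 and 0, ERBB3 fell from 10.63 and 10.6 to 4.888 and 5.454, and the list summed to 120 to 129 RPKM. Of the immune markers, PTPRC, CD3D, CD3E and ITGAM did not exceed 0.0726 RPKM. CD68, a lysosomal protein, had 62.5 and 69.0 RPKM in parental controls and 107.9 and 106.5 in MEK5DD cells, and LYZ rose from 0.4859 and 0.9035 to 1.498 and 1.378. CSF1R fell from 5.537 and 6.125 to 3.886 and 3.057 RPKM, and CD14 from 2.155 and 1.817 to 0.7635 and 0.7615. The immune list summed to 70.7 and 77.8 in parental controls and to 114 and 111.7 in MEK5DD cells. Of the endothelial markers, CDH5 and TEK did not exceed 0.0446 RPKM. KDR rose from 1.584 and 1.573 to 2.507 and 2.174 RPKM and PECAM1 fell from 0.6938 and 0.8414 to 0.1944 and 0.3091, in a summed level of 2.28 to 2.70. Of the tested markers, 1 luminal, 2 immune and 1 endothelial were higher and 3, 2 and 1 lower, and their part in the results was not tested. Passage differed together with the label, so the 2 cannot be told apart. Replicates were consecutive passages, and p-values measure only the spread between such libraries. For a single value, an exact two-sided permutation test of 2 against 2 libraries cannot go below p = 0.333, so tests rest on a limma model fitted across all genes and libraries.

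In MEK5DD cells 1049 genes were called higher (7.64% of those tested) and 867 lower (6.31%), compared to parental controls. A call required a limma p of under 0.05 after Benjamini-Hochberg adjustment together with a ratio over 1.5 or under 0.5. Without the fold limits, 2410 genes were higher (17.5%) and 3263 lower (23.8%). The median log2 fold change of all tested genes was -0.005. The largest changes were more often decreases, with 58 genes more than 8-fold lower and 21 more than 8-fold higher on the log2(RPKM + 0.5) scale on which all log2 fold changes are given. Replicates of the groups did not overlap for 80.1% of tested genes. The share of higher genes among called genes was 54.7% and became 65.7% after quantile normalization, and with the lower limit set at 1/1.5, 1923 genes were lower. In the plot of change against level, called genes were spread over the whole range of expression.

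**Figure D1:**
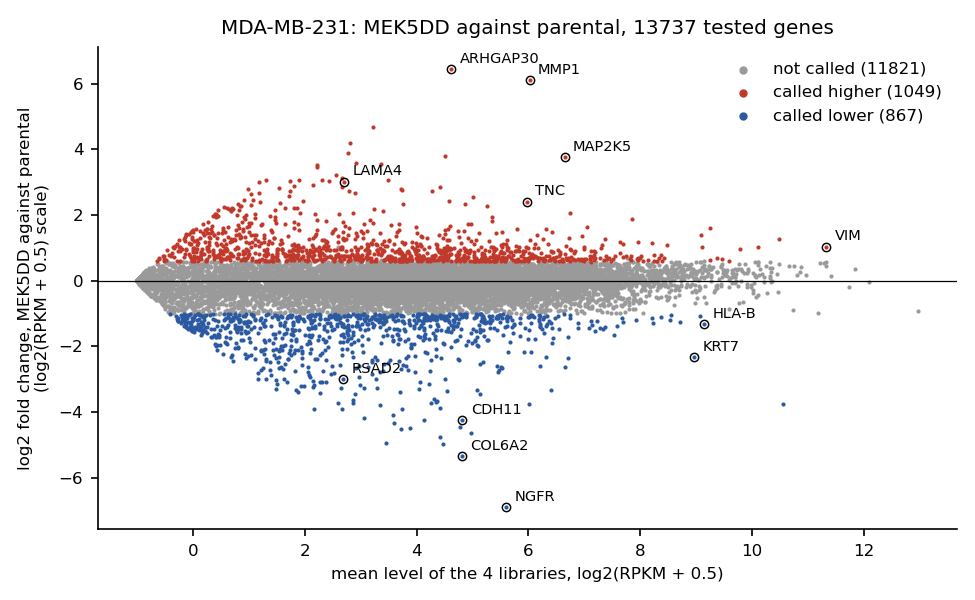
Log2 fold change in MDA-MB-231 MEK5DD cells compared to parental controls (y axis) against the mean level of the 4 libraries in log2(RPKM + 0.5) (x axis), 1 point for each of 13737 tested genes. The 1049 genes called higher are red and the 867 called lower are blue; ARHGAP30 and MMP1 stand at the top with 6.45 and 6.12, and NGFR and COL6A2 at the bottom with -6.90 and -5.33.

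The gene that encodes MEK5 was the first check of the label. MAP2K5 (ENSG00000137764.19, chromosome 15, 67542709 to 67807123 of GRCh38) had RPKM values of 12.9 and 13.6 in parental controls and 188 and 184 in MEK5DD cells. Its level was 14.1-fold higher (log2 fold change 3.77, standard error 0.102, adjusted p = 3.31e-10, limma), and in ERK5-ko cells it was 15.6 and 14.8. RNA of an introduced copy and of the cell's own gene cannot be told apart in these values. In Hs-578T, MAP2K5 had RPKM values of 14.6 and 16.9 in parental controls and 21.3 and 23.8 in MEK5DD cells (log2 fold change 0.50, adjusted p = 0.00492, limma). The increase was larger in MDA-MB-231 by 3.26 on the log2 scale (adjusted p = 4.84e-08, limma).

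Of the 6 cascade genes 1 was higher, 2 were lower and 3 did not pass the test (median log2 fold change 0.079 against -0.005 for all tested genes). MAPK7, which encodes ERK5, had 13.3 and 14.3 RPKM in parental controls and 14.8 and 15.8 in MEK5DD cells (log2 fold change 0.14, adjusted p = 0.297, limma). Of the kinases upstream of MEK5, MAP3K3 had a log2 fold change of 0.02 (adjusted p = 0.932) and MAP3K2 fell by 0.61 (adjusted p = 0.00957), a decrease that missed the threshold without parental replicate 1 (adjusted p = 0.0739) and without either MEK5DD replicate (0.0509 and 0.0535). SQSTM1, which encodes the scaffold protein p62, had a log2 fold change of 0.16 (adjusted p = 0.275). PRKCZ, an atypical protein kinase C that binds MEK5, fell from 9.73 and 8.21 to 2.55 and 2.47 RPKM, 3.57-fold lower (log2 fold change -1.65, standard error 0.124, adjusted p = 1.10e-06, limma).

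In the fit over all libraries, RNA of most factors that ERK5 is known to act on did not pass the test. MEF2 factors are phosphorylated by ERK5, which RNA levels do not measure. Among 8 genes, made up of MEF2 and KLF factors and the kinase SGK1, 1 was higher, 1 lower and 6 did not pass (median 0.188). SGK1 rose from 34.6 and 36.2 to 66.4 and 64.5 RPKM (log2 fold change 0.88, adjusted p = 0.000197). MEF2A fell from 25.2 and 25.5 to 16.2 and 17.2 RPKM (log2 fold change -0.59, adjusted p = 0.0069), and without MEK5DD replicate 1 its adjusted p was 0.0533. KLF2 had 6.43 and 5.95 RPKM in parental controls and 7.71 and 7.30 in MEK5DD cells (adjusted p = 0.357), KLF4 16.5 and 16.4 against 19.0 and 21.0 (0.0695), and KLF10 9.55 and 9.54 against 11.2 and 12 (0.0846). For these 3 genes both MEK5DD libraries were above both parental controls, by 1.21- to 1.22-fold. With median-ratio scaling KLF4 and KLF10 passed the test (adjusted p = 0.0353 and 0.0449), as they did with quantile normalization. When only the 4 compared libraries were fitted, KLF2, KLF4, KLF10 and KLF6 passed (adjusted p = 0.0497, 0.0342, 0.029 and 0.0189, limma), which brings the number passing to 6 of 8. Compared to ERK5-ko cells, the KLF2, KLF4 and KLF10 differences were 0.89, 0.91 and 0.90 on the log2 scale (adjusted p = 0.00338, 3.17e-05 and 4.64e-05, limma). The larger part of each lay in the ERK5-ko cells, which were below parental controls by -0.63, -0.64 and -0.63 (adjusted p = 0.0586, 0.00275 and 0.00355, limma). The MEK5DD changes from parental controls were 0.26, 0.27 and 0.27. KLF6 (log2 fold change 0.12), MEF2D (0.00) and MEF2C (-0.01) did not pass in the fit over all libraries.

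**Figure D2:**
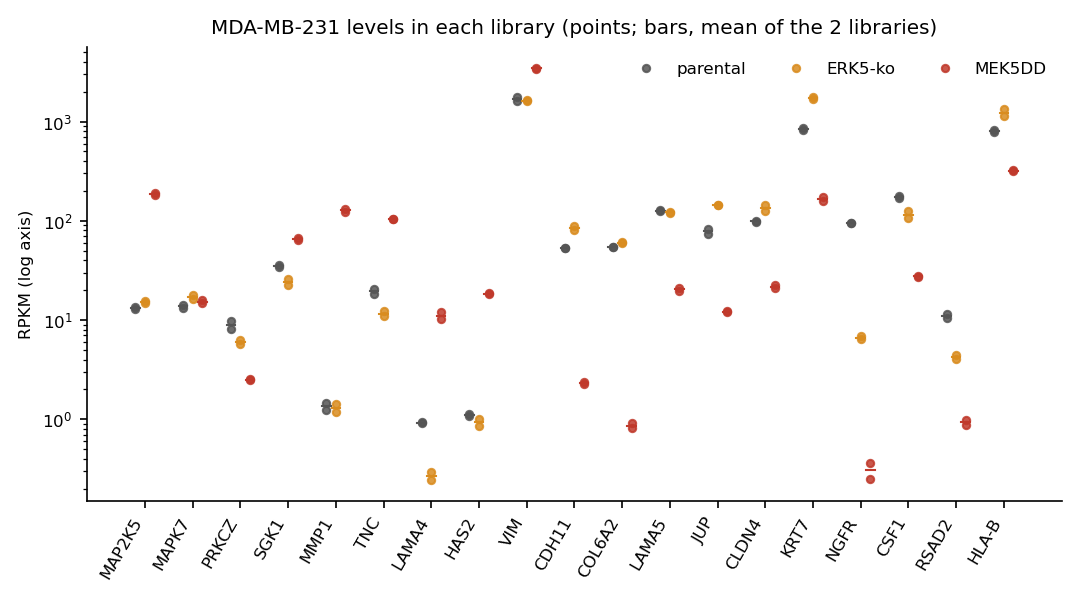
RPKM of 19 genes (log axis) in each MDA-MB-231 library, parental in grey, ERK5-ko in orange and MEK5DD in red; points are libraries and bars the mean of 2. MAP2K5, MMP1, TNC, LAMA4 and HAS2 were above parental controls in both MEK5DD libraries, and NGFR, COL6A2, CDH11, KRT7 and RSAD2 were below them in both.

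Apart from MAP2K5, the 10 largest increases were in genes with parental means under 2.6 RPKM. ARHGAP30 (chromosome 1, 161046946 to 161069970), a GTPase activating protein, went from 0.0284 and 0.0885 to 47.7 and 48.8 RPKM (log2 fold change 6.45, standard error 0.0988, adjusted p = 9.89e-12, limma). ARHGAP30, DAPK1 and CNTN1 reached the filter level of 0.5 RPKM only in the MEK5DD libraries of MDA-MB-231. They were thus tested only because they are high there, and their p-values add no separate support. MMP1 (ENSG00000196611.4, chromosome 11, 102789920 to 102798160), the interstitial collagenase that cleaves fibrillar collagen, went from 1.47 and 1.23 to 132 and 124 RPKM, 94.7-fold higher (log2 fold change 6.12, standard error 0.162, adjusted p = 2.87e-10). SSX1, a cancer-testis antigen of a family of near-identical copies whose reads may be shared, went from 0.125 and 0.279 to 18.0 and 17.1 RPKM. These genes were all under 1.5 RPKM in the ERK5-ko cells as well. DAPK1, a death-associated kinase, CNTN1, a neural cell adhesion molecule, LRRN1, a leucine-rich repeat membrane protein, and ROBO1, a receptor for SLIT guidance cues, rose 20.5- to 54.1-fold to means of 8.03 to 13.5 RPKM. AIF1L, an actin-binding protein, rose 16.3-fold to a mean of 42.1 RPKM. HAS2, which makes hyaluronan, went from 1.121 and 1.083 to 18.5 and 18.3 RPKM (16.7-fold), and MAP2K5 completed the 10.

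The 10 largest decreases were in genes with parental means of 20.7 to 95.4 RPKM, and all fell to under 2.2 RPKM in both MEK5DD libraries. NGFR (ENSG00000064300.8, chromosome 17, 49495293 to 49515017), the low-affinity neurotrophin receptor, went from 95.6 and 95.3 to 0.252 and 0.364 RPKM, 310-fold lower (log2 fold change -6.90, standard error 0.130, adjusted p = 4.86e-11, limma). NGFR was also lower in ERK5-ko cells, at 6.42 and 6.91 RPKM. COL6A2 (chromosome 21, 46098097 to 46132849), a chain of type VI collagen, went from 54.1 and 54.5 to 0.911 and 0.808 RPKM (63.2-fold lower). The potassium chloride cotransporter SLC12A7, the nuclear pore protein NUP210, the carbonic anhydrase CA12, the transcription cofactor LBH, the autophagy kinase ULK2, TRIM29, the hyaluronan-degrading CEMIP and TP53I11 fell 27.2- to 107-fold. Apart from NGFR and NUP210, which had 14.65 and 15.01 RPKM in ERK5-ko cells against 20.7 in each parental control, these genes were at or above their parental levels in ERK5-ko cells.

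Some genes passed from no detected reads to clear expression or the reverse. CD53, a tetraspanin, EPB41L3, a membrane skeleton protein, and TENM4, a teneurin, had 0 reads in both parental controls and 1.60 to 3.69 RPKM in the MEK5DD libraries, so their levels were at least 52.0-, 67.6- and 90.2-fold higher (against 3 reads over the group, which covers counting error only). SAMSN1 had 2 reads over the parental group and 290 over the MEK5DD group, a ratio of 147 with a 95% counting interval of 40.3 to 1220 (exact binomial). AGR2, a secretory-pathway protein of luminal breast cells, had 65 and 68 reads in parental controls and 0 in both MEK5DD libraries, at least 43.7-fold lower, and it was also under 0.121 RPKM in ERK5-ko cells. CA9, a hypoxia-induced carbonic anhydrase, had 239 reads over the parental group and 1 over the MEK5DD group, a ratio of 236 with an interval of 41.9 to 9349. In all, 7 tested genes had 3 reads or fewer over the parental group and at least 1 RPKM in both MEK5DD libraries, and 6 genes showed the reverse. Such genes can pass the expression filter only through the group where they are high. CD53, EPB41L3 and SAMSN1 did so through the MEK5DD libraries, and AGR2 through the parental controls.

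Genes of the extracellular matrix moved in both directions. Of 42 collagen genes 29 were tested, 12 were lower and 2 higher (6.9% higher and 41.4% lower), and their median log2 fold change was -0.239 against -0.005 for all tested genes. Both type VI chains fell, COL6A1 from 116 and 122 to 8.41 and 8.42 RPKM (14.1-fold lower) and COL6A2 as above. COL1A2, a chain of fibrillar type I collagen, fell from 6.81 and 6.80 to 0.116 and 1.11 RPKM, with MEK5DD replicates that differed from each other. COL5A1 fell from 119 and 114 to 38.5 and 38.0 RPKM, COL18A1, the source of endostatin, fell 3.67-fold, and COL7A1, the anchoring fibril collagen, fell 3.18-fold. COL8A1, a short-chain collagen, was an exception and rose from 67.9 and 69.1 to 180 and 176 RPKM.

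Laminin genes moved in both directions, and integrin genes were more often lower than higher. LAMA4 (chromosome 6, 112108760 to 112254939), a laminin alpha chain of vessel and muscle basement membranes, rose from 0.917 and 0.935 to 11.9 and 10.2 RPKM (log2 fold change 3.02, standard error 0.190, adjusted p = 2.61e-07, limma). LAMA5, the alpha chain of most epithelial basement membranes, fell from 127 and 125 to 19.5 and 21.1 RPKM (log2 fold change -2.61, standard error 0.220, adjusted p = 2.78e-06). Over 10 tested laminins, 3 were higher and 4 lower (30 and 40%, median -0.296). Of 18 tested integrins, 8 were lower and 2 higher (44.4 and 11.1%, median -0.312). ITGB3 fell from 4.98 and 5.09 to 1.32 and 1.61 RPKM and was the only integrin called lower, while ITGA3, ITGA6 and ITGB4, subunits of laminin receptors with parental means of 235 to 1121 RPKM, were 1.46- to 1.71-fold lower. ITGB8, which binds latent TGF-beta, rose 1.66-fold, and in ERK5-ko cells it was at 3.44 and 3.19 RPKM against 3.53 and 3.11 in MEK5DD cells.

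Matrix glycoproteins and crosslinking enzymes were divided evenly, with 11 higher and 11 lower of 31 tested (35.5% each way) and a median of 0.030. TNC (chromosome 9, 115019578 to 115118257), tenascin C, an adhesion-modulating protein of tumor stroma, rose from 18.3 and 20.6 to 105 RPKM in both MEK5DD libraries (log2 fold change 2.41, standard error 0.154, adjusted p = 2.91e-07). THBS1, TGFBI and the crosslinking enzyme LOX rose 1.96- to 2.01-fold. THBS2 fell from 2.11 and 2.28 to 0.0370 and 0.0321 RPKM, and was at 27.1 and 21.9 RPKM in ERK5-ko cells. Another crosslinking enzyme, LOXL4, fell from 33.0 and 33.4 to 3.35 and 3.24 RPKM (10.1-fold lower).

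Of 30 tested matrix proteases and inhibitors, 9 were higher and 10 lower (30 and 33.3%, median -0.185). Beside MMP1, the stromelysin MMP3, its neighbour on chromosome 11, rose from 0.0851 and 0.114 to 2.14 and 2.27 RPKM, and the aggrecanase ADAMTS1 rose from 2.88 and 2.79 to 22.7 and 22.6. SERPINE2, a protease inhibitor, rose from 4.20 and 5.30 to 35.2 and 38.7 RPKM. TIMP3, a matrix-bound metalloprotease inhibitor, fell from 107 and 108 to 24.0 and 23.2 RPKM, and PLAT, a plasminogen activator, fell 2.55-fold. The gene model of MMP1 overlaps the opposite-strand gene WTAPP1, as HAS2 overlaps HAS2-AS1, LRRN1 SUMF1, LAMA5 ADRM1 and DDIT3 MARS, and whether reads were counted by strand is not given in the sources used here.

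More epithelial genes fell than rose, and vimentin rose. Of 23 tested epithelial junction genes 10 were lower and 3 higher (43.5 and 13%, median -0.152), and of 11 tested keratins 6 were lower and 5 did not pass (median -0.874). JUP, the plakoglobin of adherens junctions and desmosomes, fell from 73.0 and 83.5 to 11.96 and 12.27 RPKM (log2 fold change -2.64, standard error 0.144, adjusted p = 7.96e-08). The tight junction gene CLDN4 fell from 97.9 and 99.2 to 21.0 and 22.4 RPKM. ESRP2, an epithelial splicing regulator, fell from 5.003 and 4.861 to 0.587 and 0.775 RPKM, and EPCAM fell 2.55-fold. CDH1, which encodes E-cadherin, was at 0.640 and 0.650 RPKM in parental controls and at 0.0376 and 0 in MEK5DD cells. KRT7 fell from 817 and 855 to 158 and 173 RPKM (log2 fold change -2.33, standard error 0.134, adjusted p = 1.26e-07), and KRT19 fell from 499 and 506 to 236 and 252. KRT81, which shares sequence and position with KRT86, fell 19.2-fold. The abundant pair KRT8 and KRT18 had log2 fold changes of -0.21 and -0.17 (adjusted p = 0.103 and 0.441). The tight junction genes OCLN and CLDN1 rose, by 0.77 and 1.06 on the log2 scale.

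Among 12 EMT factors and mesenchymal genes 5 were higher and 2 lower (41.7 and 16.7%, median 0.055). VIM (chromosome 10, 17228259 to 17237593), the intermediate filament of mesenchymal cells, rose from 1610 and 1751 to 3418 and 3492 RPKM (log2 fold change 1.04, standard error 0.122, adjusted p = 4.01e-05). CDH11, a cadherin of mesenchymal cells, went the other way, from 53.1 RPKM in each parental control to 2.26 and 2.37 (22.9-fold lower, adjusted p = 1.44e-09). FN1, fibronectin, was called higher (44.4 and 51.6 against 74.1 and 77.6 RPKM, adjusted p = 0.0418), but its adjusted p was 0.0812 to 0.204 when any of the 4 libraries was left out. PRRX1 rose from 0.132 and 0.118 to 0.923 and 1.04 RPKM. Of 9 fibroblast markers 4 were lower and 5 did not pass, and their summed level was 28.0 and 28.3 RPKM in parental controls and 5.18 and 7.22 in MEK5DD cells, mostly PDGFRB, COL1A2 and COL1A1. Fewer cells of a type and less RNA per cell cannot be told apart in such values.

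**Figure D3:**
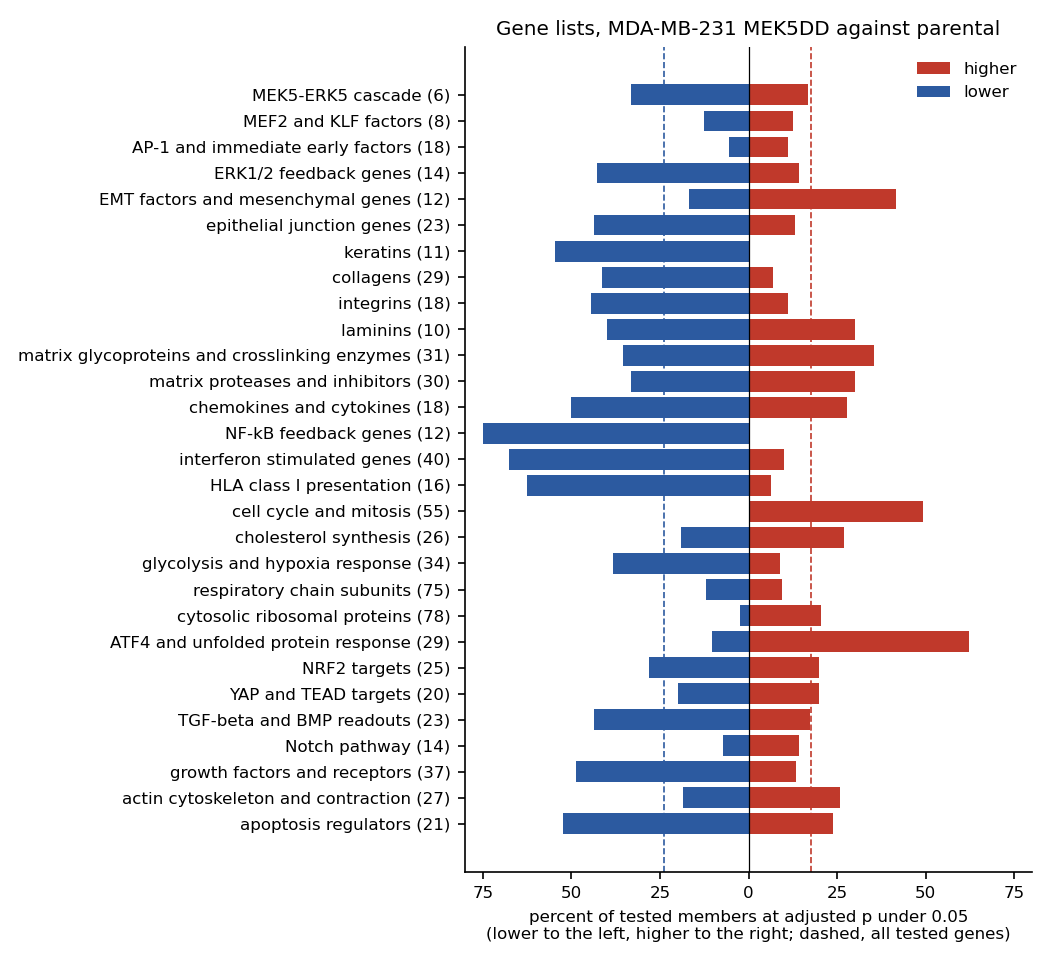
Percent of the tested members of 29 gene lists that were higher (red, to the right) or lower (blue, to the left) in MDA-MB-231 MEK5DD cells compared to parental controls at adjusted p under 0.05; the number tested is in parentheses and dashed lines mark all tested genes at 17.5 and 23.8%. Interferon stimulated, NF-kB feedback and HLA class I genes extend farthest to the left, and ATF4 and cell cycle genes farthest to the right.

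More cytokine and growth factor genes fell than rose. Of 18 tested chemokines and cytokines 9 were lower and 5 higher (50 and 27.8%, median -0.406). CSF1, the macrophage growth factor, fell from 172 and 176 to 27.2 and 27.8 RPKM (log2 fold change -2.64, standard error 0.109, adjusted p = 9.34e-09). IL32 fell from 16.7 and 18.7 to 2.53 and 2.71 RPKM, TNFSF10, which encodes the death ligand TRAIL, fell 3.56-fold, CSF2 fell 4.05-fold and IL6 fell 2.19-fold. The neutrophil chemokines CXCL1, CXCL2, CXCL3 and CXCL8 were higher, CXCL8 going from 28.7 and 27.9 to 54.2 and 54.4 RPKM, and reads of CXCL1, CXCL2 and CXCL3 may be shared between these similar genes. IL24 rose from 5.06 and 4.89 to 16.4 and 18.2 RPKM.

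Of 12 NF-kB feedback genes, which NF-kB itself induces, 9 were lower and 3 did not pass (75% lower, median -0.933). ICAM1, an adhesion receptor for leukocytes, fell from 60.7 and 64.6 to 24.5 and 27.5 RPKM, TNFAIP2 fell from 85.3 and 89.2 to 38.5 and 42.2, and TRAF1 fell from 5.52 and 5.72 to 1.95 and 2.08. RELB and BCL3, members of the pathway, fell 2.102- and 2.057-fold. Among 37 tested growth factors and receptors 18 were lower and 5 higher (48.6 and 13.5%, median -0.304). Of the ligands of the EGF receptor, EREG fell from 8.14 and 8.42 to 1.19 and 1.08 RPKM, AREG fell 2.90-fold and TGFA fell 2.77-fold, while EREG was at 49.2 and 50.8 RPKM in ERK5-ko cells. PDGFRB fell from 14.3 and 14.9 to 2.15 and 1.76 RPKM. IGFBP3, an IGF-binding protein, rose from 40.4 and 40.8 to 176 and 169 RPKM.

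Most interferon stimulated genes were lower. These genes are induced when interferon signalling activates transcription factors that bind an interferon stimulated response element (ISRE) in their promoters. Of 40 genes, all tested, 27 were lower, 4 higher and 9 did not pass (67.5 and 10%), and their median log2 fold change was -0.764. RSAD2, which encodes the antiviral enzyme viperin, fell from 11.4 and 10.5 to 0.982 and 0.882 RPKM (log2 fold change -3.00, standard error 0.139, adjusted p = 2.17e-08). OASL fell from 15.1 and 14.7 to 2.50 and 2.33 RPKM, and IFI27 fell from 77.5 and 75.6 to 12.6 and 10.1. ISG15, a ubiquitin-like modifier, fell from 110 and 101 to 39.7 and 40.8 RPKM, and IFIT1, which binds viral RNA, fell from 22.7 and 21.1 to 8.02 and 8.29. IRF7, a transcription factor of the pathway, and IFITM2, a viral entry restriction factor, were called higher (1.88- and 1.58-fold). RSAD2 overlaps CMPK2 on the opposite strand, and CMPK2 was called lower as well.

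The promoters of 3 of the lower genes are shown as examples of where this element lies. The bases are the 250 before a RefSeq start site in GRCh38.p14, 5′ to 3′ on the gene's strand, and capitals mark matches of GAAANNGAAA on either strand.

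RSAD2 (chr2:6877527-6877776, plus strand): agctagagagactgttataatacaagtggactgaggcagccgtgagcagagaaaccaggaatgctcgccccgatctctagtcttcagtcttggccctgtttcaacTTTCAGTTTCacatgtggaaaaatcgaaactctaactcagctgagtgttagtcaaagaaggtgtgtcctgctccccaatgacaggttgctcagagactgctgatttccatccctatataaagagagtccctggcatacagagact

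ISG15 (chr1:1013247-1013496, plus strand): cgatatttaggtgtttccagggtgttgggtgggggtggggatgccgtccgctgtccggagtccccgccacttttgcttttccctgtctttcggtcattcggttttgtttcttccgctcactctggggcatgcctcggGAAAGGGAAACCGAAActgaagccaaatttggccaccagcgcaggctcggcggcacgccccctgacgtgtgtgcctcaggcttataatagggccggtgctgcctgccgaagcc

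IFIT1 (chr10:89392373-89392622, plus strand): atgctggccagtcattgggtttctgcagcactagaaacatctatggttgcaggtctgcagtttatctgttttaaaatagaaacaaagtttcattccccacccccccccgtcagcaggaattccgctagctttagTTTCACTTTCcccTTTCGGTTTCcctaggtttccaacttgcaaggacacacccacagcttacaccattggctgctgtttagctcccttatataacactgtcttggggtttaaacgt

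RSAD2 held 1 match, which begins 145 bases before the start, and a second listed start of this gene held none. ISG15 held 2 overlapping matches beginning 113 and 107 bases before its start, and IFIT1 held 2 matches beginning 116 and 103 bases before it. Of the 16 interferon stimulated genes called lower, 13 had a promoter in the RefSeq table and 11 of these (84.6%) held a match, all but CMPK2 and OAS1. Of the 24 not called lower, 18 had a promoter and 11 of these (61.1%) held a match, and over all 27305 genes in the table the share was 3.71%. Interferon stimulated genes are known for this element, so the list's choice fixes a high share, and these letters are not a measurement of binding.

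The 16 genes of HLA class I antigen presentation were also mostly lower, 10 of them against 1 higher (62.5 and 6.25%, median -0.508). HLA-B (chromosome 6, 31353872 to 31357188) fell from 793 and 821 to 316 and 325 RPKM and belongs to a family of similar genes whose reads may be shared. B2M, the common light chain, and the peptide transporter TAP1 were 1.62- and 1.60-fold lower. In ERK5-ko cells the HLA-B level was 1130 and 1327 RPKM.

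Of 55 cell cycle and mitosis genes 27 were higher and 28 did not pass (49.1% higher, median 0.349). CDT1, which licenses replication origins, rose from 12.8 and 13.9 to 31.6 and 33.1 RPKM (log2 fold change 1.25, standard error 0.109, adjusted p = 3.90e-06). AURKB, a mitotic kinase, rose from 71.0 and 78.1 to 138 and 147 RPKM, CDC20, an activator of the anaphase promoting complex, rose from 154 and 164 to 276 and 262, and RRM2, a ribonucleotide reductase subunit, rose 1.58-fold. MKI67 had 59.2 and 57.0 RPKM in parental controls and 79.8 and 74.3 in MEK5DD cells but did not pass (adjusted p = 0.344).

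Genes of the ATF4 and unfolded protein responses, which cells induce when protein folding or amino acid supply is disturbed, had the largest share of increases, 18 of 29 with 3 lower (62.1 and 10.3%, median 0.489). DDIT3, a stress-induced transcription factor, rose from 17.5 and 18.7 to 46.8 and 54.5 RPKM (log2 fold change 1.46, standard error 0.149, adjusted p = 1.30e-05). PPP1R15A, which restores translation after stress, rose from 44.2 and 44.6 to 105 and 111 RPKM, and the cystine transporter SLC7A11 rose 2.15-fold. PHGDH, an enzyme of serine synthesis, fell from 5.13 and 4.71 to 1.85 and 2.04 RPKM. Of 78 cytosolic ribosomal protein genes 16 were higher and 2 lower (20.5 and 2.56%, median 0.317), and 44 were higher in a fit blocked on replicate number. RPL13 rose from 241 and 246 to 407 and 430 RPKM and RPL10 from 505 and 507 to 824 and 806. Of 26 cholesterol synthesis genes 7 were higher and 5 lower (26.9 and 19.2%, median 0.129). Among them MVD, an enzyme of the mevalonate pathway, rose from 25.9 and 25.3 to 38.1 and 43.0 RPKM.

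Glycolysis and hypoxia genes fell more often than they rose. The shares of NRF2 targets were near those of all tested genes (17.5% higher and 23.8% lower). Of 34 genes of glycolysis and the hypoxia response 13 were lower and 3 higher (38.2 and 8.82%, median -0.145), with CA12, CA9, EGLN3, PDK1, VEGFA and ALDOC called lower. VEGFA fell from 124 and 126 to 40.8 and 50.5 RPKM, whereas the vasoactive peptide gene ADM rose from 8.76 and 9.16 to 53.8 and 55.0. Among 25 NRF2 targets 5 were higher and 7 lower (20 and 28%, median -0.052). TXNRD1, a thioredoxin reductase, fell from 437 and 411 to 172 and 177 RPKM, the transporter ABCC3 fell from 40.9 and 49.0 to 8.10 and 8.05, and HMOX1, heme oxygenase, rose 2.06-fold.

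Among other signalling lists, TGF-beta and BMP readouts and ERK1/2 feedback genes had larger shares of lower genes than all tested genes (23.8% lower and 17.5% higher). Among 20 YAP and TEAD targets 4 were higher and 4 lower (20% each way, median 0.033). CTGF rose from 101 and 107 to 214 and 207 RPKM and GADD45B from 26.3 and 28.7 to 77.5 and 87.2. F3, tissue factor, fell from 339 and 334 to 147 and 148 RPKM. Of 23 TGF-beta and BMP readouts 10 were lower and 4 higher (43.5 and 17.4%, median -0.194), and LTBP3 and BMP4 fell 9.98- and 2.37-fold. Of 14 ERK1/2 feedback genes 6 were lower and 2 higher (42.9 and 14.3%, median -0.137). Of these the ERK1/2 phosphatase DUSP6 had a log2 fold change of -0.07 (adjusted p = 0.749). Of 18 AP-1 and immediate early factors 2 were higher and 1 lower (11.1 and 5.56%, median 0.156), and none was called. With the block 2 were lower. Of 14 tested Notch pathway genes 2 were higher (14.3%) and 1 lower (7.14%), or 2 lower with the block. HEYL, a Notch-induced repressor, rose from 0.0885 and 0.0984 to 1.15 and 1.29 RPKM.

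Among 27 actin and contraction genes 7 were higher and 5 lower (25.9 and 18.5%, median 0.079). TAGLN rose from 3.62 and 4.11 to 11.1 and 12.1 RPKM and ACTN1 from 348 and 383 to 741 and 740. The myosin light chain kinase MYLK fell from 53.2 and 48.0 to 21.3 and 20.6 RPKM. Of 21 tested apoptosis regulators 11 were lower and 5 higher (52.4 and 23.8%, median -0.301). PMAIP1, which encodes NOXA, fell from 109 and 101 to 41.5 and 42.0 RPKM and CFLAR, a caspase-8 inhibitor, fell from 50.1 and 48.0 to 23.6 and 22.6, while the decoy receptor TNFRSF10D rose 1.92-fold. Of 75 respiratory chain subunits 7 were higher and 9 lower (9.33 and 12%, median 0.058), and with the block 17 were higher.

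Change also followed position along chromosomes. When tested genes were taken in windows of 25 in chromosomal order, 8 runs of at least 4 consecutive windows had medians beyond 0.2 on the log2 scale in the same direction, limits that were chosen after the values were seen. The runs held 1725 genes, of which 866 were lower and 212 higher at any ratio. Of the 12012 genes outside them, 2397 were lower and 2198 higher. The runs were picked by their medians, so an excess in the direction of a run was fixed by that choice. The run from ZNF107 to KEL (chromosome 7, 64666083 to 142962681) held 350 genes with a median of -0.44, and 209 of them (59.7%) were lower against 14 higher. The run from DACT1 to CRIP1 (chromosome 14, 58633967 to 105488947) was the only one of the 8 with increases, with 134 of 250 genes (53.6%) higher and a median of 0.42. On chromosome 18 the run from ROCK1 to SOCS6 had a median of -0.53 and 79 of 125 genes lower. On the X chromosome the runs from GYG2 to FUNDC1 and from CXorf57 to MAGEA6 had medians of -0.74 and -0.56. Runs on chromosomes 2, 6 and 12 had medians of -0.40, -0.31 and -0.44. The limits left out 3 stretches of 3 windows. On chromosome 2, from VAMP8 to CNOT11, 49 of 75 genes were lower (window medians -0.571 to -0.410). On chromosome 16, from CFDP1 to RPL13, 43 of 75 were higher (0.337 to 0.494, and -0.436 to -0.274 in ERK5-ko cells), and this stretch holds CDT1, COX4I1, MVD and RPL13. On chromosome 21, from AP000304.12 to SPATC1L, 34 of 75 were lower (-0.332 to -0.231), and it holds COL6A1 and COL6A2. In ERK5-ko cells compared to the same parental controls, the medians of these 8 runs lay between -0.17 and 0.11, and compared to ERK5-ko cells the MEK5DD medians lay between -0.81 and 0.63. In Hs-578T MEK5DD cells compared to their own parental controls they lay between -0.11 and 0.18. Runs were sought in the MEK5DD values only, and ERK5-ko cells had a stretch of their own. On chromosome 3 the windows from CNTN6 to ATG3 had ERK5-ko medians of -0.474 to -0.204. The median over chromosome 3 was -0.265 in ERK5-ko cells and -0.000 in MEK5DD cells. No measurement of DNA is among the values used here, and the part of position in the results was not tested.

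**Figure D4:**
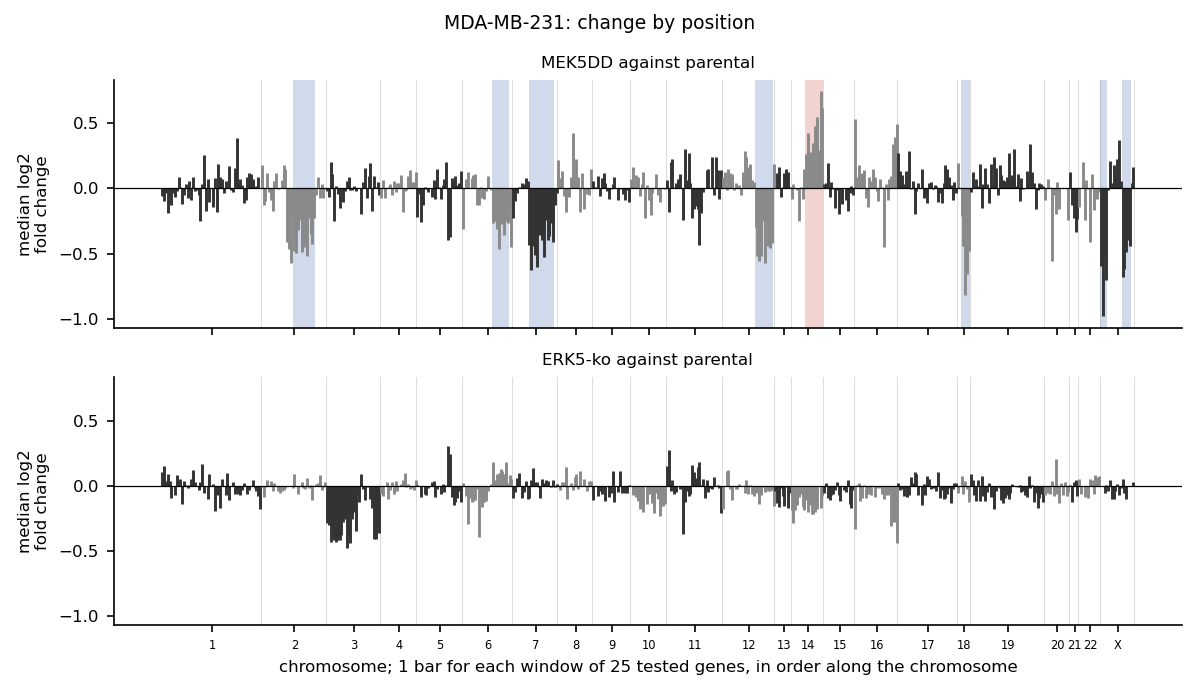
Median log2 fold change (y axis) of each window of 25 tested genes in order along the chromosomes (x axis) in MDA-MB-231 MEK5DD cells (top) and ERK5-ko cells (bottom), both compared to the same parental controls. Shading marks the 8 runs, with medians of -0.74 to -0.31 in blue and 0.42 in red. These stretches do not stand out in the same way in ERK5-ko cells, which have a lower stretch of their own on chromosome 3.

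The counts by gene group were recomputed without the genes in these runs. Within the runs 139 of 1725 genes were called higher and 191 lower. Outside them 910 of 12012 genes were called higher and 676 lower. At any ratio, 2198 of those outside were higher and 2397 lower. Of the interferon stimulated genes 18 of 31 were lower and 4 higher (median -0.725), of the HLA class I genes 10 of 16 lower, of the keratins 6 of 11 lower, and of the NF-kB feedback genes 8 of 10 lower. Of cell cycle genes 27 of 51 were higher and of ATF4 and unfolded protein response genes 17 of 25. Of respiratory chain subunits 7 of 63 were higher and 1 was lower, in place of 9 of 75. Among named genes, CLDN4 and COL1A2 lie in the run on chromosome 7, OASL and TXNRD1 in that on chromosome 12, PMAIP1 in that on chromosome 18, PIR and MORC4 in those on the X chromosome, and CFLAR and MAP3K2 in that on chromosome 2, all with lower levels. LAMA4, SGK1 and CTGF rose within the lower run on chromosome 6, and on chromosome 14, ACTN1 rose and IFI27 and TNFAIP2 fell within the higher run.

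The contrast with the same labels in Hs-578T uses other controls and had a smaller rise of MAP2K5. The log2 fold change of MAP2K5 was 0.50 there and 3.77 in MDA-MB-231. The part of this gap in the differences between the lines was not tested. Hs-578T is a mesenchymal triple-negative line with its own parental controls. There 398 genes were called higher (2.90%) and 204 lower (1.49%). Of the genes called higher in MDA-MB-231, 65 were also called higher in Hs-578T, making up 6.2% of the first list and 16.3% of the second. Of the genes called lower, 26 were shared, 3% and 12.7% of the lists. Calls in opposite directions were made for some genes, 28 of them increases in MDA-MB-231 (2.67% and 13.7% of the lists) and 54 of them decreases (6.23% and 13.6%). The difference between the lines passed the test for 2931 genes with the larger value in MDA-MB-231 (21.3%) and 2507 with the smaller (18.2%).

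Increases shared by the lines included those of TNC, LPXN and PDE1C. TNC went from 2.30 and 3.56 to 10.5 and 11.9 RPKM in Hs-578T (log2 fold change 1.79, adjusted p = 2.22e-05, limma), and LPXN, a focal adhesion adaptor, went from 42.1 and 41.9 to 107 and 94.6 RPKM there and from 4.48 and 4.66 to 34.6 and 31.6 in MDA-MB-231. PDE1C, a cyclic nucleotide phosphodiesterase, went from 1.405 and 1.342 to 4.10 and 3.21 RPKM in MDA-MB-231 and from 16.8 and 19.8 to 41.7 and 52.9 in Hs-578T. Shared decreases included those of MORC4, a chromatin protein, the secreted protease ADAMTS15 and the gamma-glutamyltransferase GGT5. MORC4 fell from 131 and 134 to 26.9 and 25.5 RPKM in MDA-MB-231 and from 2.17 and 1.83 to 0.391 and 0.386 in Hs-578T. CSF1 and HAS2 moved the same way in both lines, CSF1 falling by 1.08 and HAS2 rising by 1.02 in Hs-578T. In Hs-578T ERK5-ko cells, which share these parental controls, TNC was at 9.51 and 8.84 RPKM. LPXN was at 58.7 and 57.4 RPKM and PDE1C at 25.6 and 29.2 in these ERK5-ko cells, also above the parental controls. HAS2 was at 9.37 and 10.4 RPKM there, against 4.81 and 4.74 in parental controls and 11.4 and 9.15 in MEK5DD cells.

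Some genes and groups went opposite ways in the lines. Of all 13737 tested genes, 2329 were lower and 884 higher at any ratio in Hs-578T MEK5DD cells (median -0.083). Of the 55 cell cycle genes 38 were lower and 2 higher there (median -0.650). The difference between the lines passed the test for 40 of these 55 genes with the larger value in MDA-MB-231 and 1 with the smaller. CDT1 fell by 1.01 in Hs-578T on the log2 scale where it rose by 1.25 in MDA-MB-231 (difference 2.25, adjusted p = 1.15e-06, limma). ICAM1 rose by 1.26 in Hs-578T (difference -2.52, adjusted p = 1.41e-06) and IFI27 rose by 1.21 (difference -3.92, adjusted p = 1.87e-06). IFI27 differed in this from its list, of which 14 of 40 genes were lower and 4 higher in Hs-578T (median -0.183). DUSP6 rose by 1.26 in Hs-578T (difference -1.33, adjusted p = 0.000501). For the ERK1/2 feedback list the difference passed for 11 of 14 genes with the smaller value in MDA-MB-231 and for 1 with the larger.

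**Figure D5:**
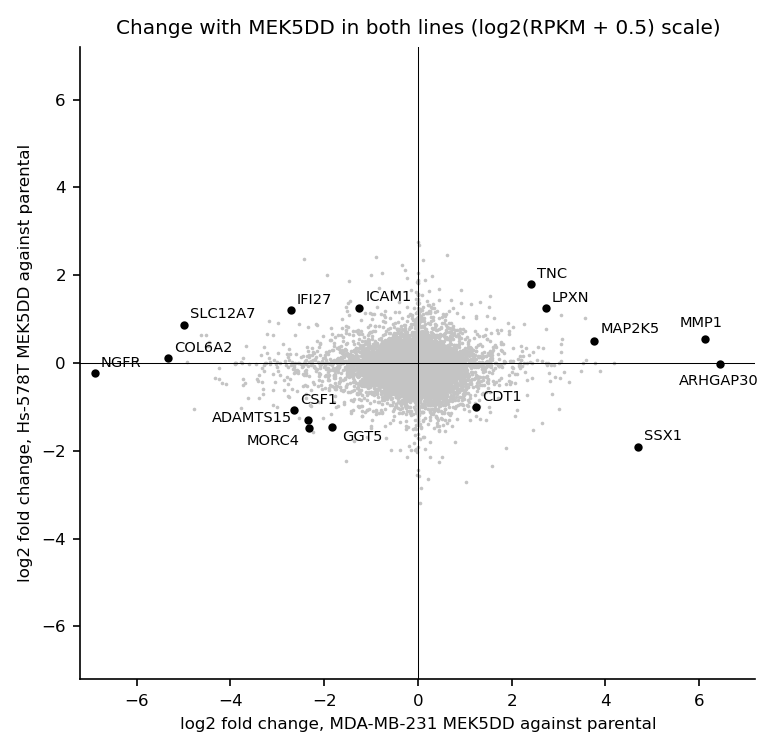
Log2 fold change with MEK5DD compared to parental controls in MDA-MB-231 (x axis) and Hs-578T (y axis) on the log2(RPKM + 0.5) scale, 1 point per tested gene, with selected genes in black. TNC and LPXN lie to the upper right and MORC4, ADAMTS15 and GGT5 to the lower left, while the extremes of MDA-MB-231 such as ARHGAP30 (-0.02 in Hs-578T) and NGFR (-0.24) lie close to the horizontal axis and SSX1 (-1.90) lies below it.

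ERK5-ko cells share the parental controls of MDA-MB-231, so their values are given beside those of MEK5DD without a test of likeness. The list medians in ERK5-ko and MEK5DD cells were -0.590 and 0.349 for cell cycle genes, 0.063 and -0.874 for keratins, -0.321 and -0.764 for interferon stimulated genes, and 0.013 and -0.508 for HLA class I genes. In ERK5-ko cells KRT7 was at 1761 and 1676 RPKM, CA9 at 16.8 and 18.2, TRIM29 at 75.3 and 75.0 and F3 at 850 and 778, all above the parental level. NGFR, RSAD2 and AGR2 were below the parental level in both kinds of cells.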

How the data were processed

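RNA-seq of 12 libraries was analysed, of which 4 form the comparison described. Per the labels, stranded mRNA libraries were sequenced and processed with bcl2fastq, Trimmomatic 0.32 and TopHat2 2.1.1 on GRCh38, and the authors deposited RPKM values per gene. The counting tool and its strand setting are not given in the sources used here. Reads per gene were recovered as whole numbers for 32152 of 32152 genes (100%, tolerance 0.0001), and the totals give the depth of each library. Counting intervals and floors (95%, 3 reads) cover counting error only.

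Protein-coding genes with at least 0.5 RPKM in at least 2 libraries were tested on log2(RPKM + 0.5) with limma 3.58.1 (R 4.3.3, mean-variance trend, 6 group means over all 12 libraries, 6 residual degrees of freedom, Benjamini-Hochberg adjustment over all tested genes). Calls needed an adjusted p under 0.05 and a ratio above 1.5 or below 0.5. In the lists, higher and lower mean an adjusted p under 0.05 at any ratio. The fitting code was tested on simulated data. Python 3.11.15, pandas 2.3.3 and matplotlib 3.10.9 were used for tables and figures.

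The members and gene lists were chosen with earlier results of these data known. Named genes were the cascade and MEF2 and KLF genes, the 10 largest called changes in each direction with a mean of at least 1 RPKM, up to 3 called genes with the largest change in each other list, the 3 largest differences between the lines in each direction, and 3 genes in each direction called alike in both lines, by the size of the smaller change. Some genes are not reported here, and the next by the same rule was taken. Further list members and genes with no reads in 1 group were named after their values were seen. Same-numbered replicates deviated together (r = 0.1074 to 0.5406 over 6 pairs of groups, across genes), a pairing read from the data and not from the labels, and the fit with replicate number as a block is an alternative. Other alternatives were another scaling, pseudocount, filter, gene set, comparison group or set of libraries, voom on the recovered reads, and leaving out each replicate. Promoters were taken from RefSeq (GRCh38.p14).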

Additional observations from a re-analysis of the deposited data

Results flagged for a closer look

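The change with MEK5DD differed between the lines, by the limma contrast of contrasts, for 89 of 107 named genes. Over all tested genes it did so for 21.3% with the larger value in MDA-MB-231 and 18.2% with the smaller. Many named genes were chosen by the size of their change or of this difference, so a high share among them was fixed by the choice. In 15 of the 89 named genes the difference, MDA-MB-231 minus Hs-578T, was beyond 4 on the log2 scale. It was 6.59 for SSX1, 6.47 for ARHGAP30, 5.57 for MMP1, 4.17 for DAPK1, 4.07 for CNTN1 and 4.06 for LAMA4. It was -4.13 for KRT81, -4.88 for TRIM29, -4.94 for CEMIP, -4.95 for NUP210, -5.17 for ULK2, -5.25 for LBH, -5.44 for COL6A2, -5.86 for SLC12A7 and -6.66 for NGFR. For the other 74 genes it lay between -3.99 and 3.80.

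Genes that do not code for proteins were outside the comparison. Of 1175 with a mean of at least 1 RPKM, 159 were called higher and 74 lower. The largest increases were in the antisense gene AP004372.1 (log2 fold change 2.87), the lincRNA RP11-54A9.1 (2.48) and the antisense gene AC108142.1 (2.42), all above parental controls in both MEK5DD libraries.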

How the results depend on the processing

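With ERK5-ko cells in place of parental controls, 2170 genes were called higher, 3835 were higher at any ratio, and 4711 differed between the lines with the larger value in MDA-MB-231. With a lower limit of 1/1.5, 1923 genes were called lower. At any ratio, 2410 genes were higher and 3263 lower in the fit over all 12 libraries. The counts were 3573 and 4179 with only the 4 compared libraries and 3336 and 3930 with only the 6 MDA-MB-231 libraries. Calls with the fold limits changed little in these 2 fits (1052 and 1053 higher, 866 and 867 lower). Without 1 replicate, 1509 to 1623 genes were higher at any ratio, against 2410 with all, while 995 to 1055 were called higher and 829 to 900 lower. Pseudocounts of 0.1 and 1 gave 1225 and 917 genes called higher and 1127 and 677 lower, and voom on recovered reads gave 1245 and 1195. The replicate block gave 1056 and 867 and moved no named gene across the threshold. It shifted more list counts than those given above. With it 32 cell cycle genes were higher and 1 lower. Lower were also 29 interferon stimulated genes, 12 matrix proteases and inhibitors and 11 HLA class I genes, among other shifts. With limma voom and the block KLF4 came under the threshold (adjusted p = 0.0425) and LYZ rose above it (0.0676). Of 1819 values for 107 named genes under 17 alternatives, 1769 kept direction and side of the threshold, 24 no longer had an adjusted p under 0.05, 15 came under it (all in KLF2, KLF4, KLF6 and KLF10) and 11 changed sign. Compared to ERK5-ko cells the log2 fold change was -0.13 for KLF6, -0.15 for MAPK7, 0.61 for MEF2C, 0.15 for PHGDH and -0.0756 for SQSTM1. MEF2C was 0.0218 with median-ratio scaling, 0.12 with quantile normalization and -0.0786 to 0.0631 without 1 replicate, and MEF2D was -0.0641 to 0.0682 without 1 replicate. COX4I1 and FN1 missed the threshold when any 1 of the 4 libraries was left out. The cause of these shifts was not tested. With 2 libraries a group and no vector control, small changes are the least certain.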

Other observations

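S100A4, a calcium-binding protein linked to cell motility, lay outside the rule for named genes and was chosen after its values were seen. Its mean level was 2810 RPKM in parental controls and 206 in MEK5DD cells (log2 fold change -3.77, adjusted p = 7.69e-09, limma), and its log2 fold change in Hs-578T was 0.03.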
